A study of Mus musculus with 20 samples.

Results

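The control pull-down of the CRAC experiment recovered few of the windows listed for HuD, and most reads of both pull-downs lay on noncoding RNAs. CRAC maps the RNA bases that a tagged protein touches: UV light ties the protein to RNA, the protein is purified through 2 affinity steps, and the attached RNA is sequenced. The 6 CRAC libraries compared here, of 20 samples in the series, are 3 HuD and 3 control pull-downs from NSC-34 cells, a hybrid of mouse neuroblastoma and spinal cord cells enriched in motor neurons. The HuD libraries came from Trex-HuD NSC-34 cells, which carry a tetracycline-inducible human HuD with HA and His tags. The control libraries came from Trex NSC-34 cells, which carry the tetracycline repressor and no tagged protein. Both lines received 10 µg/ml tetracycline for 24 h and were crosslinked at 254 nm, so the agent was shared and the tagged protein was not. This treatment is that of the GEO labels and of the study's CRAC methods, while its main text names doxycycline at a lower dose and for a longer time. Whether each line is a single clone is not stated in the sources used here. The deposited values pool the 3 libraries of each line, hence no spread between libraries is known, no difference below was tested over replicates, and the intervals cover counting error only. In all, 2868 unique windows of 7 or 8 nt were listed, of which 186 (6.49%) had control coverage above 0 and 2682 had none. Windows were listed on HuD signal after positions with control signal were penalised or removed, which by itself keeps this share low. Gene types other than protein coding held 97.1% of the control coverage and 92.7% of the HuD coverage.

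HuD (ELAVL4) is a neuronal member of the Hu family of RNA-binding proteins, whose RNA recognition motifs hold U-rich and AU-rich stretches, often in 3′ UTRs, where the proteins affect the stability and translation of mRNAs. In CRAC, the amino acids left on a crosslinked base can make reverse transcriptase skip it, so a deletion in a read marks the contact, while coverage only says that the RNA was recovered. A pull-down from cells without the tagged protein shows which RNAs come through the purification by themselves. In RNA-Seq of control cells, Prph, which encodes the neurofilament protein peripherin, stood at 1154 and 1226 CPM (counts scaled to library size) and Tubb3, neuronal tubulin, at 578 and 606 CPM. Chat, the enzyme of acetylcholine synthesis, stood at only 0.531 and 0.506 CPM, and Gfap, the astrocyte filament, at 0.630 and 0.506 CPM. Of the 3 microglial markers, none was among the 14924 genes counted.

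The windows that carried the most control reads are shown with 11 nt of RNA on each side (GENCODE vM21 transcripts, GRCm38, 5′ to 3′), with the listed window in capitals. These are on noncoding RNAs:
Rny3 UCUUUGUU (chr6:47781680-47781687, plus strand): aguuacagauuUCUUUGUUccuucuccgcu
Yam1 CCUUUGU (chr17:39848047-39848053, plus strand): uaagucccugcCCUUUGUacacaccgccc
Rn18s-rs5 AAUUUUU (chr17:39847168-39847174, minus strand): uugaacacucuAAUUUUUucaaaguaaac
Rny1 ACUUUCCC (chr6:47788101-47788108, minus strand): uccuguucuacACUUUCCCcccuucucacu
Rnu2-10 AGUUUAA (chr11:101658288-101658294, plus strand, shared by 8 U2-like genes): cuguucuuaucAGUUUAAuaucugauacg
These are on protein coding genes, the first annotated in the 5′ UTR, the second in the 3′ UTR and the third in no region:
Ccrn4l UAUUUGG (chr3:51244366-51244372, plus strand): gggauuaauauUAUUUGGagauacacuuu
Eef1a1 GGUUAAU (chr9:78478624-78478630, minus strand): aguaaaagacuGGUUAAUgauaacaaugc
Eif4g2 GCUUUUUC (chr7:111076111-111076118, minus strand): uacuuuucucuGCUUUUUCucucuggaugu
For comparison, these are the most covered windows of the 4 protein coding genes with the most HuD coverage and 0 control reads, 3 in 3′ UTRs and that of Ptges3 in coding sequence:
Cd164 GAUUUGU (chr10:41530872-41530878, plus strand): aguuuucaucuGAUUUGUccugaggaucu
Hist1h4d UAUUUUU (chr13:23581925-23581931, plus strand): acguacucauuUAUUUUUcuucacccaaa
Ptges3 UGUUUGC (chr10:128070173-128070179, plus strand): cgauuuuauguUGUUUGCgaaaaggagaa
Tomm20 AGUUAAC (chr8:126934790-126934796, minus strand): uaaauacacugAGUUAACcaaauaucaug
The window of Gm21092, CCUUUAU, with 11 control reads, was not placed on a transcript.

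Summed over the 2868 windows, coverage was 2585043 reads in the HuD pools and 9999 in the control pools, a ratio of 259. Library totals are not part of the table, so a ratio is not scaled for depth and has no meaning as an absolute enrichment. Ratios of different RNAs come from the same pools and can be set side by side. A read that crosses several windows is counted at each, so sums count some reads more than once. Of the 186 windows with control reads, 66 had a single one, 60 had 2 to 9, 37 had 10 to 99 and 23 had 100 or more. The lowest ratio of any window was 13.5, and 36 windows in 23 genes lay under 20 with 2432 of the control reads. The study penalised and removed positions with control signal before listing sites, so positions where the control came closer to HuD are not in the table, and a lower limit of the ratio set by that step cannot be told apart from one set by the RNAs.

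**Figure D1:**
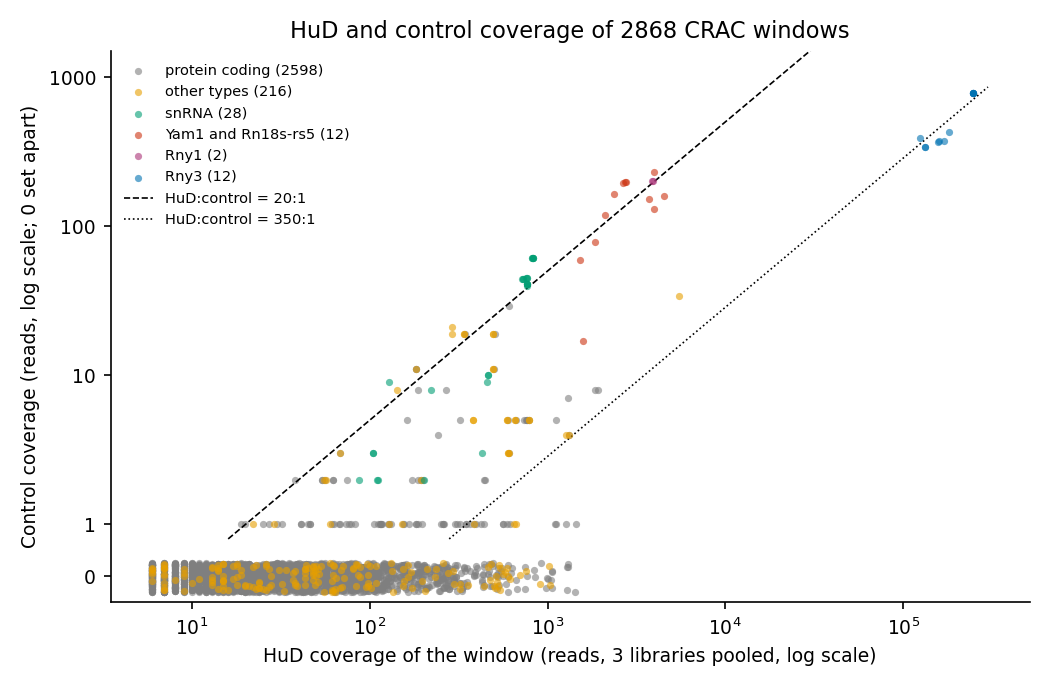
Control coverage (log scale, with windows at 0 set apart at the bottom and spread vertically for visibility) against HuD coverage (log scale) of each of the 2868 windows, both in reads of 3 pooled libraries, coloured by class. Ratios under 30 hold for 18 of the 28 snRNA windows and 12 of the 14 of Yam1, Rn18s-rs5 and Rny1, near the 20:1 line. The 12 Rny3 windows lie near the 350:1 line, and most protein coding windows at 0 control reads.

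Control reads fell mostly on small structured and ribosomal RNAs. Windows of protein coding genes had control reads in 96 of 2598 cases, 3.70% (95% exact binomial interval 3.00 to 4.49), and windows of other gene types in 90 of 270, 33.3% (27.7 to 39.3). Protein coding windows held 2.87% of the control coverage and 7.28% of the HuD coverage. Their summed ratio was 656, from 188244 HuD and 287 control reads, and that of all other types was 247, which Rny3 dominates. Without Rny3 the other types had 100776 HuD and 3206 control reads, a ratio of 31.4. By gene, 49 of 1299 protein coding genes (3.77%) and 35 of 126 others (27.8%) had any control read, 84 of 1425 (5.89%) together.

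Y3 and Y1, small cytoplasmic RNAs transcribed by RNA polymerase III that are known as partners of the Ro60 and La proteins, stood far apart in this comparison. Rny3 had 12 windows with 2296023 HuD and 6506 control reads, a ratio of 353, and it took 88.8% of the HuD coverage and 65.1% of the control coverage. Most of these windows overlap. With overlapping or adjoining windows merged, Rny3 held 34.3% of the control coverage. The HuD share was not computed on merged windows, and the 88.8% counts a read at each window it crosses. Rny1 had 2 windows, with 3876 and 3926 HuD reads and 202 control reads in each, at ratios of 19.2 (16.7 to 22.2) and 19.4 (16.9 to 22.5). Both Rny1 windows begin at position 73 of the RNA, so they are 1 site listed at 2 lengths. The ratios of single Rny3 windows ran from 316 to 457, all above those of this Rny1 site.

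The spliceosomal U2 snRNA was the most repeated entry. All 28 snRNA windows had control reads, 15285 HuD reads against 839, a ratio of 18.2. Of these, 21 windows in 12 genes matched U2 (Rnu2-10 and 11 genes that share its sequence), with ratios from 13.5 to 143. The window AGUUUAA, printed above, occurred in 8 of these genes with 761 to 825 HuD reads and 45 to 61 control reads. The window UGUUCUU occurred in all 12 with 429 to 769 HuD reads and 3 to 44 control reads. These entries are near-identical copies, so they stand for the same reads to an extent the table does not give and are not independent of each other. U5-like snRNAs (Rnu5g and 3 more genes) had only 2 or 3 control reads per window for 87 to 112 HuD reads, at ratios of 35 to 56. Rnu11 of the minor spliceosome had 202 HuD and 2 control reads, and Gm24407 had 221 and 8.

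Yam1, listed as a lincRNA, and Rn18s-rs5, listed as rRNA, lie on opposite strands of the same locus on chromosome 17. Yam1 had 19987 HuD and 1099 control reads over 6 windows, a ratio of 18.2, and Rn18s-rs5 had 13738 and 599 over 6 windows, a ratio of 22.9. Their windows ran from 13.5 to 28.4 and from 13.8 to 92.8. At 1 overlapping position, the windows of both strands had nearly the same values, 2644 HuD and 196 control reads for Yam1 and 2710 and 197 for Rn18s-rs5. These 2 windows share sequence as reverse complements. Whether coverage was counted by strand is not stated in the sources used here. The 2 entries may thus count the same reads and cannot be taken as 2 separate RNAs. In RNA-Seq of the control cells, Yam1 stood at 2332 and 454 CPM, so the 2 libraries differed widely in this entry. Rn18s-rs5 stood at 1.23 and 0.366 CPM.

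Mitochondrial RNAs did not behave as a group. The window of mt-Te, a tRNA for glutamate, had 5489 HuD and 34 control reads, a ratio of 161 (115 to 233). That of mt-Rnr1, the small ribosomal RNA of mitochondria, had 289 and 21, a ratio of 13.8 (8.83 to 22.6). The large ribosomal RNA mt-Rnr2 was uneven within itself, with 652 and 664 HuD reads against 1 control read each at neighbouring windows and 143 against 8 at another, a ratio of 17.9 (8.83 to 42.2).

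**Figure D2:**
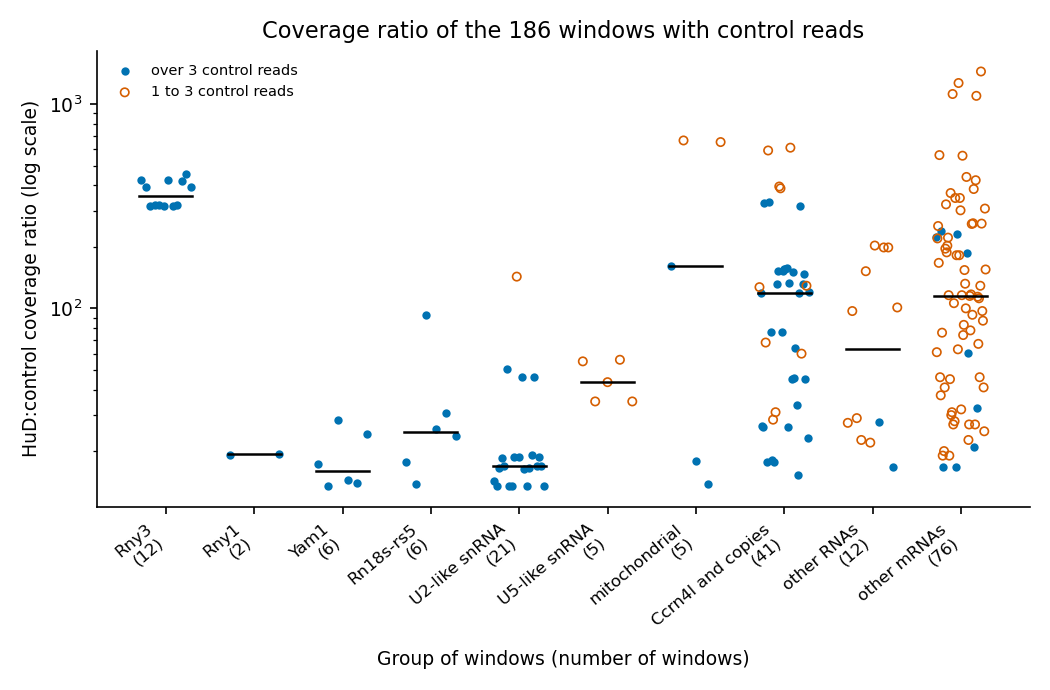
HuD:control coverage ratio (log scale) of each of the 186 windows with control reads, by group of RNAs, with the number of windows under each name. Filled points have over 3 control reads, open points 1 to 3, whose ratios have wide counting intervals, and bars are medians, from 15.9 for Yam1 to 356 for Rny3.

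Among the 37 genes with at least 5 control reads, ratios of noncoding genes were mostly below those of mRNAs. The 26 noncoding genes had a median ratio of 25.3, with 14 under 30, of which 8 were U2-like, and 6 over 100. The 11 protein coding genes had a median of 206, from 59.2 for Gm6483 to 343 for Eef1a1, with none under 30 and 8 over 100. The lowest ratios of all were those of mt-Rnr1, the lincRNA Gm29562 at 15.2 (9.56 to 25.6), and the U2-like Gm23849, Rnu2-10, Gm24950 and Gm26316 between 15.5 and 15.6. Of the other U2-like genes, Gm23971, Gm24497, Gm23444 and Gm23472 followed at 15.8 to 16.7. The highest were those of Rny3, Eef1a1, Ppia (271), Slc38a6 (249.5), Hnrnph2 (243) and Eif4g2 (215). Gm29562 and Slc38a6 share sequence with Ccrn4l, so their ratios may not be those of separate RNAs. Only genes that had control reads enter this list, so mRNAs without any are not represented in it.

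Of the listed RNAs, Y3 alone had more than 1 deletion in the control. Of the 52 control deletions, 50 were in Rny3, 1 in Rny1 and 1 in Eef1a1, and 181 of the 186 windows with control reads had none. Its deletions sat in 3 of its 7-nt windows, printed with positions in the 102-nt RNA:
Rny3 UGUUUAC (positions 21 to 27): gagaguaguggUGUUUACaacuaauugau
Rny3 GAUUUCU (positions 53 to 59): aaccaguuacaGAUUUCUuuguuccuucu
Rny3 UCUUUGU (positions 57 to 63): aguuacagauuUCUUUGUuccuucuccgc
At UGUUUAC, 8958 of 132201 HuD reads and 19 of 337 control reads had a deletion, 6.78 (6.64 to 6.91) and 5.64 (3.43 to 8.66) per 100. The 2 pull-downs were within counting error there. At UCUUUGU, deletions were 10615 of 247786 in HuD and 8 of 777 in the control, 4.28 (4.20 to 4.36) and 1.03 (0.446 to 2.02) per 100. At GAUUUCU, they were 2940 of 247754 and 23 of 778, 1.19 (1.14 to 1.23) and 2.96 (1.88 to 4.40) per 100. The order of these overlapping windows was thus the reverse in the control, with intervals that do not overlap at either window. The remaining 7-nt window, ACUAAUU at positions 29 to 35, had 57 deletions in 156948 HuD reads and none in 368 control reads, and 0 deletions allow up to 0.815 per 100 by the limit of 3 counts, or 0.997 by the exact binomial limit that the plot of Y3 windows draws. Coverage alone had a smaller contrast. The windows at positions 52 to 64 had ratios of 316 to 319, and those at positions 21 to 37 had ratios of 392 to 457.

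**Figure D3:**
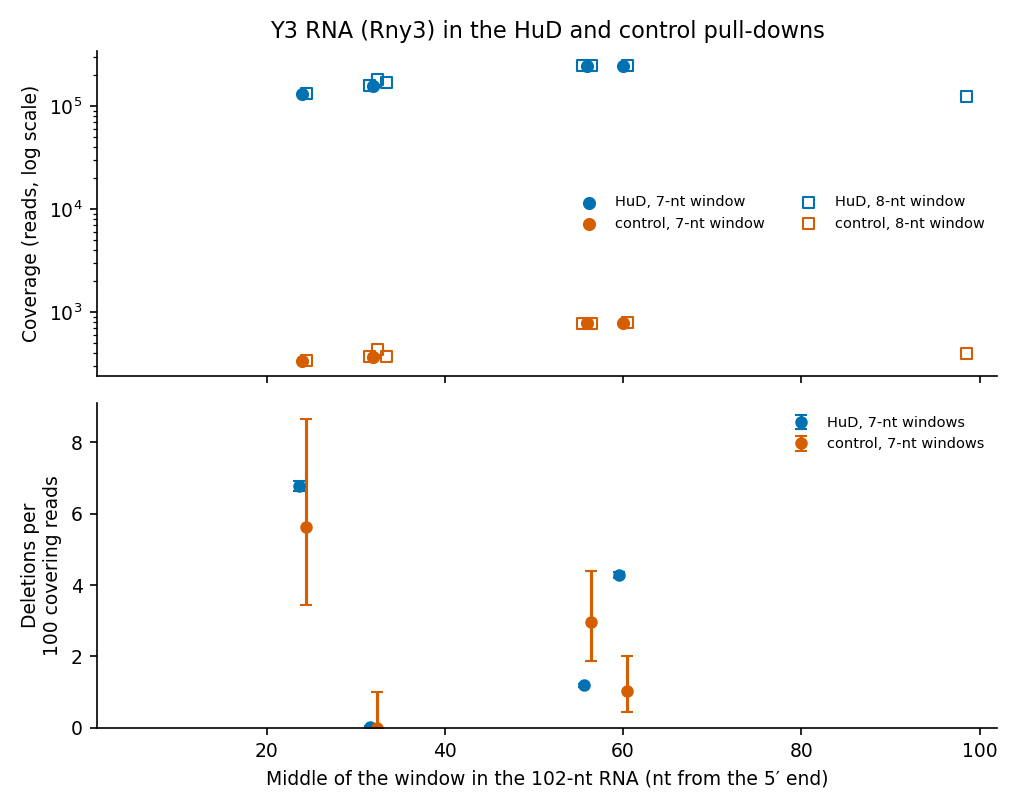
Coverage (upper panel, log scale) of the 12 Rny3 windows in reads of 3 pooled libraries, and deletions per 100 covering reads at its 7-nt windows (lower panel, with 95% exact binomial intervals), by the position of the middle of the window in the RNA, for HuD and control. Control coverage is 316 to 457 times lower than HuD coverage, while at positions 53 to 63 the deletion rates of HuD and control are in opposite order.

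Coverage of mRNAs in the control was concentrated in a few genes and within them in a few windows. Ccrn4l, which encodes the circadian phosphatase nocturnin, led with 96 control reads, then Eef1a1 with 33 and Eif4g2 with 28. Gm21092 and Gm6483 had 15 each, Rab3gap1 and Slc38a6 10 each, Hnrnph2 7, Ppia 6, Rpl7a and Ube2d1 5 each, and Spcs2 4. Together these 12 genes had control reads in 50 windows. Of the 96 protein coding windows with control reads, 58 had just 1.

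Ccrn4l had 45 windows, 16 with control reads, and 14699 HuD reads, at a ratio of 153. All 45 are annotated in the 5′ UTR, on a transcript of 9797 nt. The first and last windows, UCUUUUC at positions 88 and 5003, have the same sequence over 29 nt and had 99 and 94 HuD reads. Its windows with control reads ranged from 18.2 to 612. In its most covered stretch, UAUUUGG had 504 HuD and 19 control reads (26.5, interval 16.8 to 44.4) and ACUUUGC had 345 and 19 (18.2, 11.5 to 30.5). Upstream in the same stretch, AAUUUAC had 1323 HuD reads and 4 control reads (331, 129 to 1216), and UAUUUCC had 918 and 0, at least 306-fold against the 3 counts that a count of 0 allows. These neighbouring windows, picked for their contrast, differed in control reads against the order of their HuD reads. Over the gene, the 16 windows with control reads had a median of 448.5 HuD reads and the 29 without had 121. All 16, and 24 of the 29, share at least 20 nt with windows of other listed genes. RP24-390N7.1, of undetermined type, had 78 control reads in 12 windows, and Gm29084, antisense, had 57 in 6. Rab3gap1, a regulator of the Rab3 GTPase, and Slc38a6, an amino acid transporter, carry copies on the opposite strand, each with 2 windows of 5 control reads. Their window UAUUAAU had 752 and 762 HuD reads, and GAUUAAU of Ccrn4l, with which it shares sequence, had 791 HuD and 5 control reads. Reads of these copies may be shared, which the table does not say. The counts listed for Ccrn4l may thus not come from its mRNA alone. In control cells, Ccrn4l was transcribed at 40.5 and 37.2 FPKM (CPM divided by the exon length in kb), Rab3gap1 at 3.20 and 3.54, and Slc38a6 at 1.34 and 1.47.

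Eef1a1, the elongation factor that brings aminoacyl-tRNA to the ribosome, had 12 windows within its 3′ UTR and 11322 HuD reads. Of its 33 control reads, 29 were at the window GGUUAAU, which had 610 HuD reads, a ratio of 21.0 (14.5 to 31.7). The window AGUUUAA, 19 nt upstream, had 1057 HuD reads and 0 control reads, at least 352-fold. CAUUUAA, next to it, had 1006 and 0, at least 335-fold. Further downstream, 4 windows with 1098 to 1445 HuD reads had 1 control read each, and the last 4 had none. The single control deletion of an mRNA was here, at CAUUUUU, where 124 of 1098 HuD reads had one. Without GGUUAAU the ratio of protein coding windows rose from 656 to 727. Eef1a1 was at 2494 and 2420 FPKM, the second highest level of the genes named by the rule, after Rplp1.

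Eif4g2, a translation factor that works without the cap-binding protein, had 11 windows, 7 with control reads. Its 5 windows on a 522-nt transcript without an annotated region held 26 of the 28. GCUUUUU had 1843 HuD reads, 257 of them with a deletion, and 8 control reads (230, 117 to 534), and ACUUUUC had 1121 and 5 (224, 95.8 to 692). By position, all 5 lie within the span of Gm23262, a 168-nt RNA of the same strand listed as a snoRNA. The 3 windows listed for Gm23262 had 596 to 609 HuD reads and 3 control reads each. Which RNA gave the reads of this stretch is not stated in the sources used here. In the 3′ UTR, the other 6 windows had 15 to 188 HuD reads and 0 or 1 control read. These 5 windows held 92.9% of the control reads of the gene and 94.0% of its HuD reads, so the control reads were distributed much as the HuD reads were. Eif4g2 was at 224 and 264 FPKM.

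The remaining mRNAs had fewer control reads. Hnrnph2, a splicing regulator, had 7 at its window UAUUUGU with 1309 HuD reads (187, 90.5 to 466), and 0 at its other windows of 302 and 93. Ppia, cyclophilin A, had 1 read at 6 of 8 windows, with 132 to 302 HuD reads. Ube2d1, a ubiquitin-conjugating enzyme, had 5 at CCUUUUC with 162 HuD reads (32.4, 13.6 to 101) and 0 at CCUUUUA, 22 nt upstream, with 164. That pair is another case in which neighbouring windows of like HuD coverage differed in control reads. Rpl7a, of the large ribosomal subunit, had 4 at UCUUUGA with 242 HuD reads (60.5, 23.3 to 224) and 1 at GCUUUUU with 424. Both Rpl7a windows lie on an 834-nt transcript without an annotated region, so these reads may not come from the mature mRNA. Gm21092 and Gm6483 each had 11 control reads at CCUUUAU with 183 HuD reads, as did the pseudogene 6820431F20Rik, and whether these 3 entries stand for the same reads is not given by the table.

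**Figure D4:**
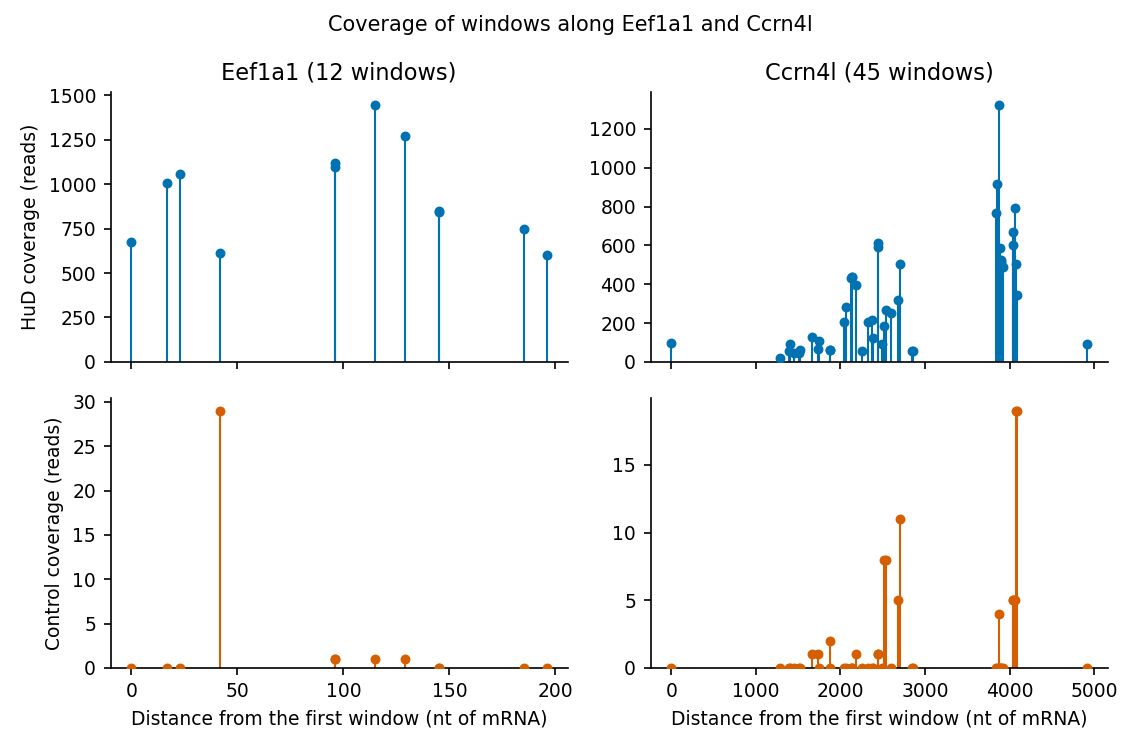
HuD coverage (upper panels) and control coverage (lower panels) in reads of 3 pooled libraries at the 12 windows of Eef1a1 and the 45 windows of Ccrn4l, by distance in nt of mRNA from the first window. In Eef1a1 a single window holds 29 of 33 control reads while HuD coverage is between 600 and 1445 throughout, and in Ccrn4l control reads sit in 2 clusters.

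Many mRNAs with high HuD coverage had 0 control reads. The 8 with the most HuD coverage were Cd164, a membrane sialomucin (2851 reads), Hist1h4d, a histone H4 gene (2715), Ptges3, the co-chaperone p23 (2569), Tomm20, an import receptor of the mitochondrial outer membrane (2314), Tubb5, a β-tubulin (2248), Rps7, of the small ribosomal subunit (2101), Ybx1, a cold shock RNA-binding protein (2036), and Jund, a subunit of the AP-1 transcription factor (1510). Their best windows had from 298 (Jund) to 1059 (Rps7) HuD reads, which with 0 control reads gives at least 99.3-fold to at least 353-fold. Summed over the windows of each gene, with the 3 counts set against the sum, the bounds ran from at least 503-fold (Jund) to at least 950-fold (Cd164). A sum counts a read at each window it crosses, while the 3 counts are set once, so these summed bounds can be too high. The Rps7 windows, with 1042 and 1059 HuD reads, gave at least 347-fold and at least 353-fold singly and at least 700-fold summed. None of the best-window bounds lay above the interval of the summed ratio of Rny3 (353, 344 to 362). The 8 mRNAs were also picked for having no control read. The most covered window without control reads, chosen after its values were seen, was UAUUUUU in the 3′ UTR of Btf3, a subunit of the nascent polypeptide complex, with 1423 HuD reads, at least 474-fold. A window of the same gene, AGUUUGG with 308 HuD reads, had 1. In Rps7, both windows are in coding sequence and are shared with the pseudogenes Gm12900 and Gm6472 and with Gm9493, listed as protein coding.

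The control reached few members of most gene groups. Of 22 ribosomal protein genes, 3 had control reads, and of 16 translation factors 2, Eef1a1 and Eif4g2, which with 61 control reads set a ratio of 301 for that group. Of the 28 control reads of Eif4g2, 26 were at windows within the span of the snoRNA Gm23262. Pabpc1, the cytoplasmic poly(A)-binding protein, had 298 HuD reads and Eif2s3x, a subunit of initiation factor eIF2, had 209, both with 0 control reads. For comparison, 3.77% of all protein coding genes had control reads. The median HuD coverage per gene was 100 reads for ribosomal proteins, 39.5 for translation factors and 27 for all protein coding genes. The ribosomal proteins had 7 control reads for 5961 HuD reads, a ratio of 852 (413 to 2119), with 5 in Rpl7a and 1 in Rplp1, which had 41 HuD reads. The Rpl7a reads were at windows without an annotated region. None of 6 chaperone genes (1478 HuD reads, with Canx, Cct2, Hsp90b1 and Calr the most covered), of 8 cytoskeletal genes (3013 reads, led by Tubb5, Pfn1, Actb and Cfl1) or of 9 known neuronal targets of Hu proteins (301 reads, with Marcks at 132, App at 47 and Nrn1 at 25) had any. At a share of 3.77%, groups this small would hold few or no such genes, so 0 sets none of them apart. With so few HuD reads, summed over windows, the neuronal targets bound the ratio only at 100.3-fold over the group. Of 26 small structured RNAs, 23 had control reads, against 27.8% of all genes of types other than protein coding. That 27.8% includes these 23 genes, of which 12 were U2-like and 4 U5-like, copies that are not independent of each other. Of 62 pseudogenes, 2 had them, 6820431F20Rik with 15 and Gm9800 with 3, while Gm6472 had 2055 and Gm9769 1094 HuD reads without any. These lists were chosen with results of these data known, so their counts are descriptions.

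How much HuD coverage a window had went with whether it had control reads. Windows with control reads had a median of 391 HuD reads and those without 25, and 79 control-free windows exceeded that 391. No window of 6 to 9 HuD reads had a control read (0 of 490), which allows a share of up to 0.612% by the limit of 3 counts and 0.750% by the exact binomial one. The share was 6 of 977 at 10 to 29 HuD reads, 28 of 846 at 30 to 99, 45 of 343 from 100 to under 300, 69 of 162 from 300 to under 1000 and 38 of 50 at 1000 and over. The summed ratio was highest where windows had few HuD reads. Windows of 6 to 9 reads had 3600 HuD and 0 control reads in all, and those of 10 to 29 had 17144 and 6, a ratio of 2857. The ratio was 1119 at 30 to 99 reads, 350.1 from 100 to under 300, 78.9 from 300 to under 1000 and 273 at 1000 and over, where Rny3 holds most reads. For a single window of few reads, 0 control reads bound the ratio only loosely.

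Within bands of HuD coverage, windows of other gene types still had control reads more often than protein coding ones. From 100 to under 300 HuD reads, 31 of 306 protein coding windows (10.1%, interval 6.99 to 14.1) and 14 of 37 others (37.8%, 22.5 to 55.2) had control reads. From 300 to under 1000, they were 29 of 99 (29.3%, 20.6 to 39.3) and 40 of 63 (63.5%, 50.4 to 75.3). At 1000 and over, they were 9 of 19 (47.4%, 24.4 to 71.1) and, without Rny3, 17 of 19 (89.5%, 66.9 to 98.7), intervals that overlap. Of these 17 windows, 12 were of Yam1 and Rn18s-rs5, on opposite strands of 1 locus, and 2 were of Rny1, so few RNAs set this share. Copies weigh on these shares. Of the 40 windows of other types from 300 to under 1000, 20 were U2-like and 15 belonged to genes that share sequence with Ccrn4l. With the U2-like genes, Ccrn4l and the genes that share its sequence left out on both sides, the shares were 28 of 292 (9.59%, 6.47 to 13.6) and 11 of 23 (47.8%, 26.8 to 69.4) in the lower band. In the next band they were 15 of 75 (20.0%, 11.6 to 30.8) and 5 of 10 (50.0%, 18.7 to 81.3), intervals that overlap. The binomial intervals treat windows as separate, while overlapping windows and copies are not.

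**Figure D5:**
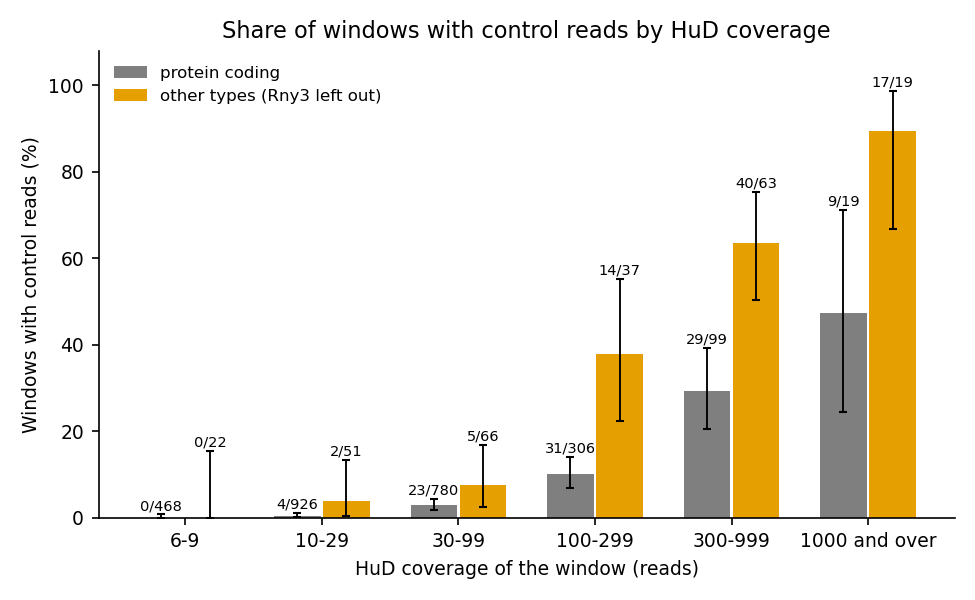
Percentage of windows with control reads by HuD coverage in reads, for protein coding windows and windows of other gene types without Rny3, with counts above the bars and 95% exact binomial intervals. The share rises from 0 at 6 to 9 reads to 47.4% and 89.5% at 1000 and over.

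Deletions were rarer, per covering read, in windows with control reads. The HuD pools had 24988 deletions in 2407659 reads at control-positive windows, 1.04 per 100, and 19345 in 177384 at control-free windows, 10.9 per 100. Without Rny3 the former was 1.99 per 100. A listed window needed at least 3 HuD deletions, so a window of few reads has a high rate by selection, and the comparison is better made at like coverage. In protein coding windows of 100 to under 300 reads the rates were 3.47 with and 6.58 without control reads per 100, and from 300 to under 1000 they were 3.09 and 2.93, so the gap at the lower band was absent at the higher. In windows of other types the rates were 6.69 and 4.28 in the lower band and 1.25 and 3.12 in the higher. Rates were low in several RNAs with low ratios, at 0.215 per 100 in Yam1, 0.291 in Rn18s-rs5 and 0.788 in the U2-like snRNAs. They were low elsewhere too, at 0.273 in mt-Te, whose ratio was 161, and at 0.593 in mmu-mir-703, a miRNA gene chosen after its values were seen, which had 0 control reads. Both windows of mmu-mir-703 share their sequence with windows of the Eef1a1 3′ UTR. Those of Eef1a1 had 1.58 and 2.08 deletions per 100 and 1 control read each, so mmu-mir-703 is not a separate case. By contrast, U5-like snRNAs had 15.6 per 100, Eif4g2 7.32 and Rny1 2.60. A Y1 window shows that a low ratio and deletions can occur together, with 191 of 3876 HuD reads deleted at ACUUUCC, 4.93 per 100 (4.27 to 5.66), against 1 of 202 in the control.

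Deletions depended on the length of the window as listed. In 69 pairs of a 7-nt and an 8-nt window that begin at the same base, the shorter had more deletions in 59, with a median of 3.50 times as many, while median coverage was equal and control reads were the same in 66. The shorter Rny3 window UGUUUAC had 8958 deletions and UGUUUACA, 1 nt longer, had 61. How reads with a deletion were assigned to windows is not stated, so a rate per window depends on which window is taken.

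Outside mRNAs, UUU was in the core of fewer windows with control reads than without, and a repeated U2 window makes up most of that gap. The bases UUU stood at positions 3 to 5 of the window in 84 of 91 7-nt protein coding windows with control reads (92.3%, 84.8 to 96.9) and in 2327 of 2389 without (97.4%, 96.7 to 98.0). In other types they stood there in 57 of 78 (73.1%, 61.8 to 82.5) and in 162 of 168 (96.4%, 92.4 to 98.7). Of the 21 without UUU there, 12 were the window UGUUCUU in the 12 U2-like genes, and without these the share was 57 of 66 (86.4%, 75.7 to 93.6), an interval that overlaps that of control-free windows. Windows were selected by their score against a matrix built from HuD sites, so both classes hold U-rich sequence by selection. In windows like UAUUAGC of Rn18s-rs5, UGUUCUU of U2 and GGUUAAU of Eef1a1, a base other than U broke the core. Of control-positive protein coding windows with an annotated region, 68 of 86 were in 3′ UTRs, 2 in coding sequence and 16 in 5′ UTRs, and all 16 of the last were in Ccrn4l. Without Ccrn4l, 97.1% of those with control reads and 93.7% of those without were in 3′ UTRs.

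Sequence shared with another listed gene was more frequent among windows with control reads. Of the 179 that could be placed on a transcript, 81 (45.3%) shared at least 20 nt of their surroundings, on either strand, with a window of another gene, against 261 of 2626 (9.94%) without control reads. Among protein coding windows the shares were 28 of 90 (31.1%) and 136 of 2455 (5.54%). In other types the order was the reverse, 53 of 89 (59.6%) and 125 of 171 (73.1%). The shared windows held 1717 of the 9966 control reads placed. Of 198 pairs of such windows in which at least 1 had control reads, 83 had the same number in both, and in 120 HuD coverage agreed within 10%.

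The mRNAs with control reads had higher transcript levels in control cells, and more HuD coverage, than those without. The 48 protein coding genes with control reads that had RNA-Seq counts had a median of 79.2 FPKM (78.4 and 79.2 in the 2 libraries), and the 1231 without had 20.2 (19.4 and 20.8). In the lowest quartile of FPKM, 5 of 320 genes had control reads (1.56%), and in the highest 30 of 320 (9.38%, 6.41 to 13.1). HuD coverage rose as well, from a median of 15 to 74.5 reads per gene. Among genes whose best window had at least 100 HuD reads, the medians were close, 77.5 FPKM for 29 genes with control reads and 73.4 for 122 without. Across the 48 genes, the ratio and FPKM had r = 0.21 on log2 scales and rho = 0.22, as a description of genes that share libraries and were selected for having control reads. In CPM the medians over all gene types were 196 and 98.9.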

How the data were processed

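The authors pooled the 3 CRAC libraries of each line. After collapsing duplicate reads by random barcodes and aligning with TopHat2 2.0.14 to GRCm38.p4, they deposited 2 values per site for HuD and for control: coverage, a signal whose unit is reads, and a count of deletions. They penalised control signal, and kept sites with at least 6 HuD reads and 3 deletions. Whether coverage is given before or after the penalty is not stated in the sources used here. The deposited p-value combines empirical p-values of coverage and deletions, unadjusted. The deposited score rates a window against the authors' weight matrix. The paper's text and the labels differ on how CRAC cells were induced, and the labels are followed.

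The 5153 rows were reduced to 2868 windows, taking the highest value, and 28 windows listed under more than 1 gene went to a protein coding gene where listed. A window listed with different HuD coverage in its rows was found 142 times. Printed positions are shifted by 1 nt (plus strand) or 2 nt (minus strand), which matches the listed sequence to GENCODE vM21, and 2805 windows were placed so. Ratio intervals are exact (Clopper-Pearson) on the split of reads between pools, and cover counting error only. Against 0 control reads, a bound uses 3 counts. No test was run, because pooled columns have no replicates. CPM from the authors' deposited counts of STAR 2.5.3a (29912017 and 35836234 in total) used TMM of edgeR 4.0.16 in R 4.3.3, and FPKM the exon length of each gene. Python 3.11.15, SciPy 1.17.1 and pandas 2.3.3 were used, tested on simulated data.

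Members, gene lists and rules were chosen with earlier results of these data known. Genes named are the 12 protein coding and 12 other genes with the most control reads, the 8 protein coding genes with the most HuD coverage and 0 control reads, the 6 lowest and 6 highest ratios among genes with at least 5 control reads, genes with a control deletion, and up to 4 members of each list. Of these, 2 genes are not reported here.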

Additional observations from a re-analysis of the deposited data

How the results depend on the processing

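No paired analysis was possible because the CRAC columns are pooled and carry no replicate numbers, and the results come from no test. Of 65 alternative values, 30 stayed within the counting interval, 1 SD or 1.5 times. In each of 10 settings the share of windows with control reads was higher in other gene types than in protein coding ones, and in each of 9 coverage settings the protein coding ratio exceeded that of all windows. The causes of the shifts below were not tested, apart from fewer windows where a setting drops some.

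The 186 windows with control reads became 120 with at least 2 reads required, 122 at a combined p under 0.05 and 70 with the most covered window per gene. The protein coding share of 3.70% became 1.46%, 9.59% and 2.77% in these settings, 16.3% at 100 HuD reads or more and 2.99% without U2-like snRNAs, Ccrn4l and the genes that share its sequence. The share of 33.3% in other types became 52.6% at a combined p under 0.05, 27.0% with 1 window per gene, 63.4% at 100 reads or more, 41.4% with repeated contexts counted once, and 26.4% without those genes. The ratio of 259 over all windows became 171 with windows merged, 269 at a combined p under 0.05, 187 with 1 window per gene, 253 at 100 reads or more, 279 with repeated contexts counted once, 82.7 without Rny3, and 853 on deletions. The protein coding ratio of 656 became 820.4 over every row, 822 with at least 2 control reads, 1139.9 with 1 window per gene, 500.2 at 100 reads or more, 909 without Ccrn4l, and 18987 on deletions, which rests on 1 control deletion (interval 3407 to 749985). The 65.1% of control coverage in Rny3 became 61.8% over every row, 34.3% merged, 69.9% at a combined p under 0.05, 40.4% with 1 window per gene and 71.4% with repeated contexts counted once. Deletions per 100 reads at windows with control reads became 2.32 as a median and 1.99 without Rny3, and at windows without them 20 as a median. Median CPM without either RNA-Seq library was 196.0 to 198 for genes with control reads and 96.6 to 103 for those without. Counting repeated contexts once, and leaving out Ccrn4l, its copies with the U2-like snRNAs, or an Eef1a1 window, were chosen after seeing the data.

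Pooling, unknown library totals and removal of control signal before deposit limit each ratio, and few control reads per mRNA leave most of their ratios without a usable interval.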
